A study of Mus musculus with 15 samples.

Results

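The promoter arrays of this series carry 1229 probes that have no gene name, only a chromosome position, among 80567 non-control probes. They were found by that rule alone: the name field of the array design holds a chromosome, a colon and a position, and the description field reads unknown. Array part 1 held 728 of them and array part 2 held 501. They were set against the 39555 named probes of part 1 and the 39783 named probes of part 2, which lie on the same chromosomes. Nearly all of them sit in short tiles: they form 252 runs of neighbouring probes, 204 of which have 5 or 6 probes, and the 225 runs of at least 3 probes, with a median span of 1314 bp, are called regions here. The median region lay 177 kb from the nearest named probe.

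The study compared DNA of wild-type J1 mouse embryonic stem (ES) cells with DNA of TKO ES cells, a methylation-deficient line known to lack the DNA methyltransferases Dnmt1, Dnmt3a and Dnmt3b. Each culture was kept in serum and LIF and taken off feeder cells for 2 passages, and 2 ug of its DNA was enriched with an antibody to methylated cytosine (methylated DNA immunoprecipitation, MeDIP). J1 DNA was labelled with Cy3 and TKO DNA with Cy5, both were hybridised to 1 array, and each array part had 7 arrays made from different passages. No array swapped the dyes and there is 1 line on each side, so dye, line and methyltransferase loss cannot be told apart, and with no channel of unenriched DNA a difference in DNA dosage cannot be told apart from one in enrichment. Every value is log2 of the channel labelled J1 over the channel labelled TKO after median centring. The region at Asz1, a germ cell gene whose promoter is known to be methylated in wild-type ES cells, lay at -0.65 ± 0.19 (SD, n = 7 arrays), towards the channel labelled TKO. For that reason the sides are named only by their labels, and neither is read as the methylated one.

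DNA methylation in mammals is found mainly at cytosines followed by guanine and is set and copied by the Dnmt enzymes. It is known to be low at promoters that are dense in such pairs and high at many other sites, among them germ cell promoters, imprinted control regions and repeats. MicroRNAs are short RNAs that are cut from longer primary transcripts and pair with messenger RNAs mainly through bases 2 to 8, the seed. Primary transcripts of intergenic microRNA genes start at promoters of their own, away from protein-coding genes.

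The design lists a transcript for most of the 252 runs. In 203 runs the probes are placed relative to a mouse full-length cDNA clone (a BC number), in 12 relative to a named RefSeq gene at a distance, and in 37 no transcript is listed. These 37 runs were placed by their nearest named genes on each side, whose positions were looked up in RefSeq (GRCm38.p6), since neither the labels nor the file headers name the genome build behind the array positions. The stretch from the start of one flanking gene to the end of the other held at least 1 microRNA gene for 29 of the 37 runs (78.4%), for 9 of the 12 runs at a distance from a RefSeq gene, and for 35 of the 192 clone runs with both flanks known (18.2%). The stretches differ in width, with medians of 1346 kb, 314 kb and 803 kb. Among those under 1000 kb, 11 of 12, 7 of 9 and 15 of 107 held one. The microRNAs of the stretches to which the values below return are shown with the seed in capitals (RefSeq, GRCm38.p6). Mir29a and Mir29b-1 share a seed, as do Mir30a and Mir30c-2, Mir15a and Mir16-1, Mir99a and Mir100, and the let-7 members. Mir125b-1 and Mir125b-2 give the same mature RNA.
mmu-miR-29a-3p: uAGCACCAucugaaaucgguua
mmu-miR-29b-3p: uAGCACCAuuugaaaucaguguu
mmu-miR-30a-5p: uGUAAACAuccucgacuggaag
mmu-miR-30c-5p: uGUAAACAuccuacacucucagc
mmu-miR-15a-5p: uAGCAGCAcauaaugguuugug
mmu-miR-16-5p: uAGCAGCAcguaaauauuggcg
mmu-miR-99a-5p: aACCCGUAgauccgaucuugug
mmu-miR-100-5p: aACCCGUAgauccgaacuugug
mmu-let-7c-5p: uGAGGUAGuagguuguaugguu
mmu-let-7a-5p: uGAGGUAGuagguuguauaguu
mmu-miR-125b-5p: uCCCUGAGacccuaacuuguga

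Probes without a gene name lay further towards the channel labelled TKO than named probes of the same chromosomes in the processed signals as deposited. On part 1 the median over unnamed probes ran from -0.09 to 0.01 and was below 0 on only 2 of 7 arrays. On part 2 it ran from -0.16 to -0.08 over the 7 arrays, while that of named probes stayed within 0.01 of 0. Weighted by chromosome, the part 2 difference was -0.11 ± 0.03 (SD, n = 7) and lay below 0 on 7 of 7 arrays. With normexp background correction it was -0.04 ± 0.08 and below 0 on 6 of 7. On part 1 the difference was -0.02 ± 0.02, also below 0 on 7 of 7 arrays, with the array nearest to 0 at -0.00022. From the deposited log ratios the part 1 difference was -0.02 ± 0.02 and below 0 on 5 of 7 arrays. Part 1 holds the Y chromosome, whose unnamed probes went the other way. Without the Y, an alternative chosen after seeing the data, the part 1 difference was -0.06 ± 0.01.

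A probe was called where limma's moderated test against 0 gave a Benjamini-Hochberg adjusted p under 0.05 and the mean over arrays was at least 0.5 from 0. Towards the channel labelled TKO, 64 of 728 unnamed probes were called on part 1 and 75 of 501 on part 2. That is 8.79% and 15.0% of them, beside 7.04% and 7.19% of all non-control probes of those parts. With normexp correction 20 and 11 were called on that side. Towards the channel labelled J1, 16 unnamed probes were called on part 1 and 3 on part 2, or 2.20% and 0.599%, beside 0.844% and 0.859% of all probes. On part 1 these 16 probes all lie on the Y chromosome, and the 3 of part 2 belong to 1 region of chromosome 8. The 139 probes called towards the channel labelled TKO were spread over 86 runs, and 120 of them were below 0 on every array that measured them.

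Brightness moves with these shares, and its part in them was not tested. In the dimmest quartile of all probes, 25.2% of unnamed and 18.9% of named probes were called towards the channel labelled TKO. In the brightest quartile the shares were 2.34% and 0.638%. In each of the 4 quartiles the share was higher among unnamed probes, and the medians were -0.25, -0.14, -0.03 and 0.08 for unnamed against -0.14, -0.01, 0.03 and 0.08 for named probes. The plot of calls by brightness shows the shares falling from dim to bright in both sets. On part 2, unnamed spots were well above background in both channels in 93.8% of cases and named spots in 96.1%, and on part 1 in 95.5% and 95.5%.

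**Figure D1:**
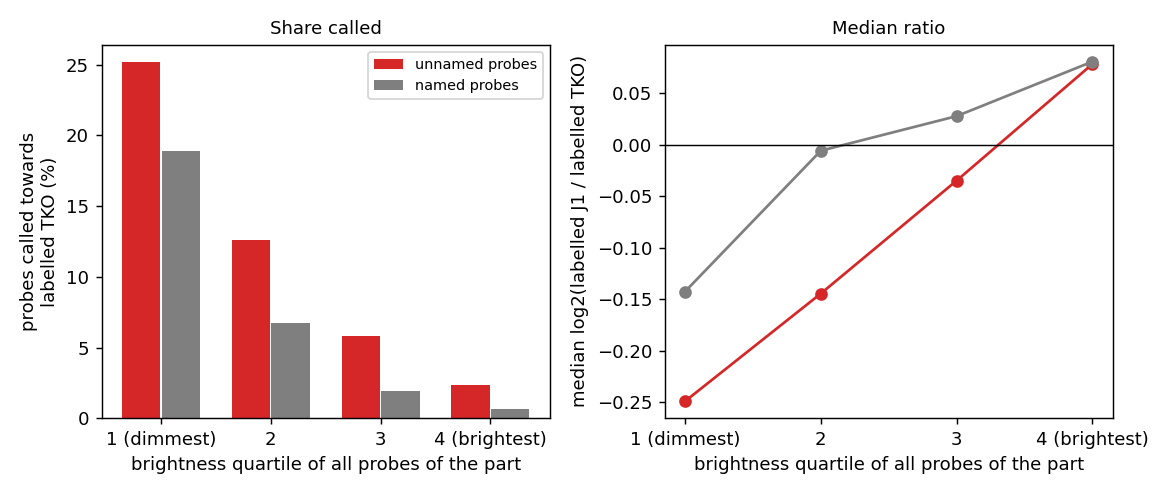
Share of probes called towards the channel labelled TKO (left, percent) and median log2(labelled J1 / labelled TKO) (right) by quartile of mean brightness over all probes of a part, for unnamed (red) and named (grey) probes of both parts. The share is higher among unnamed probes in every quartile, from 25.2% against 18.9% in the dimmest to 2.34% against 0.638% in the brightest.

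Chromosome by chromosome, the unnamed probes lay below the named ones on all 7 arrays for 6 of the 10 chromosomes of part 1 and 9 of the 12 of part 2. Chromosome 13 differed most, by -0.21 ± 0.07 (SD, n = 7 arrays), with 35 unnamed probes. Chromosome 10 differed by -0.17 ± 0.05 and chromosome 12 by -0.17 ± 0.05. Calls towards the channel labelled TKO were most frequent on chromosome 15, at 27.6% of 29 unnamed probes against 8.49% of named ones, and on chromosome 12, at 24.1% of 79 against 9.38%. Chromosomes 2 and 17 went the other way, by 0.05 ± 0.04 and 0.02 ± 0.05, and chromosome 14 differed by 0.00 ± 0.05. Chromosome 8 is covered by both parts. Its named probes stood high, at medians of 0.12 and 0.10, and the unnamed probes differed from them by -0.02 ± 0.03 on part 1 and by -0.10 ± 0.06 on part 2, where all 7 arrays were below 0. The values by chromosome show the Y highest in the mean, at 0.13 ± 0.08 and above 0 on 6 of 7 arrays. Its SD overlaps that of chromosome 2, which was also above 0 on 6 of 7 arrays.

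**Figure D2:**
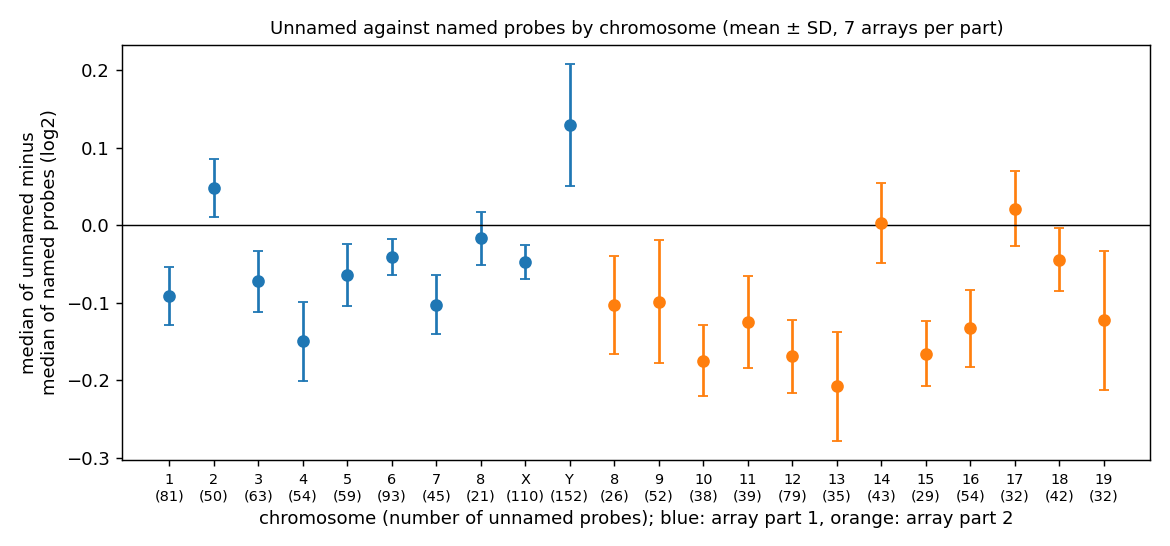
Median log2 ratio of unnamed probes minus that of named probes of the same chromosome (vertical axis, log2), by chromosome, with the number of unnamed probes in brackets. Points are means and bars SDs of 7 arrays, and most points lie below 0, with the Y at 0.13 ± 0.08.

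By the transcript listed, the 11 regions at a distance from a RefSeq gene had a median of -0.26, the 33 regions with no transcript -0.17, and the 152 clone regions off the Y chromosome -0.11. The medians over all regions fitted were -0.00 on both parts. An adjusted p under 0.05 without a size limit was reached towards the channel labelled TKO by 48 of 135 unnamed regions on part 1 (35.6%) and 55 of 90 on part 2 (61.1%), beside 30.9% and 31.5% of all regions. Towards the channel labelled J1 it was reached by 31 regions on part 1 (23.0%) and 11 on part 2 (12.2%), beside 25.5% and 25.5%. Of these 31 regions, 18 were Y chromosome regions at clones. Off the Y, over both parts, 102 of 195 unnamed regions passed towards the channel labelled TKO and 24 towards the channel labelled J1. Probes of 1 region also varied more among themselves than in named regions, with a median SD of 0.24 against 0.20.

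With the size limit, 12 unnamed regions were called and all 12 lay towards the channel labelled TKO, each below 0 on 7 of 7 arrays. They were 5 of 135 on part 1 (3.70%) and 7 of 90 on part 2 (7.78%), beside 2.43% and 2.83% of all regions. No unnamed region was called towards the channel labelled J1 by limma, beside 0.0407% and 0.122% of all regions, while 42 had a mean above 0 and an adjusted p under 0.05. Of the 12, 4 have no transcript listed, 2 lie at a distance from a RefSeq gene and 6 are at cDNA clones. All positions printed are those of the array design. With normexp background correction none of the 12 was called: 6 kept an adjusted p under 0.05 and the same side, and their values ran from -0.47 to 0.09.

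**Figure D3:**
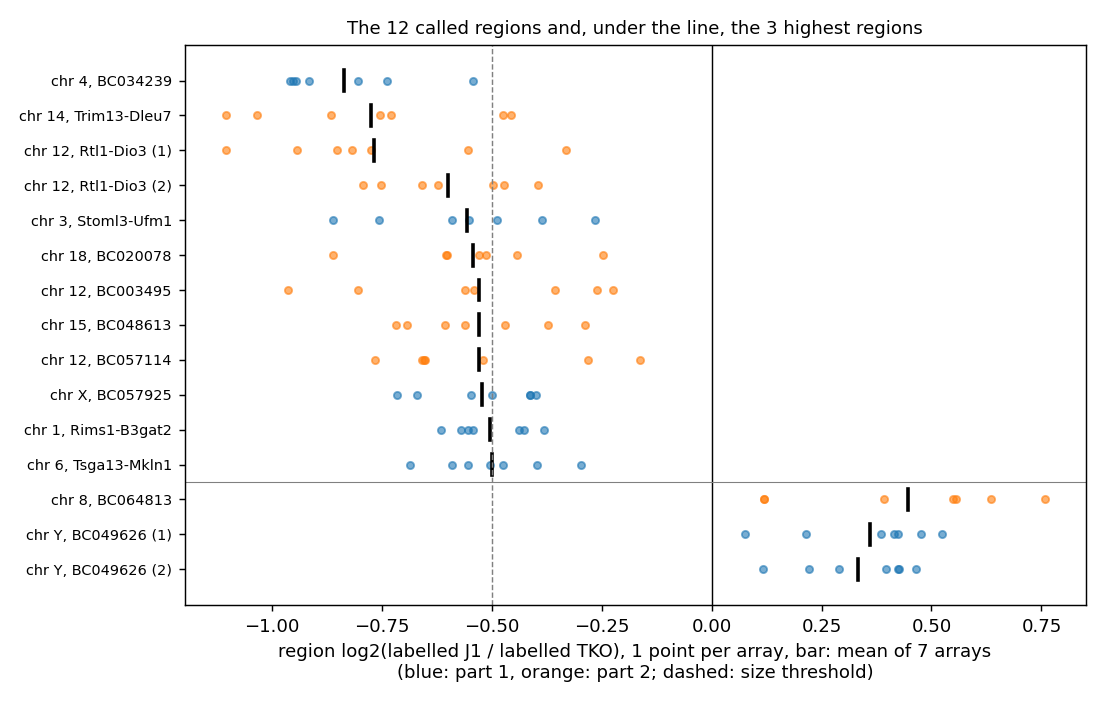
Region log2(labelled J1 / labelled TKO) on each of 7 arrays (points) with the mean (bar) for the 12 called unnamed regions, above the line, and the 3 highest unnamed regions, under it. Every point of the called regions lies below 0 and every point of the 3 highest above 0.

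The lowest region was chr4:8783165-8784192, at the start of clone BC034239, whose RNA the expression array describes as similar to the KIAA1416 protein. Its lowest array was at -0.96, the median at -0.91 and the highest at -0.54, for a mean of -0.84 ± 0.15 (SD, n = 7; limma adjusted p = 4.9e-06). All arrays were low and all 5 probes were as well, from -1.01 to -0.75. The nearest named probes lay 320 kb and 411 kb away, and RNA of the clone was well above background in both channels of all 3 expression arrays. Under normexp correction the region stood at -0.29.

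Between Trim13, a ubiquitin ligase gene, and Dleu7 lay chr14:53625633-53626398, listed 24483 bp from the start of Kcnrg. The RefSeq stretch between those flanks holds Mir15a and Mir16-1, which share the seed shown above. Its arrays ran from -1.10 over a median of -0.75 to -0.46, with a mean of -0.77 ± 0.25 (SD, n = 7; limma adjusted p = 2.3e-05). No array came near 0, but only 65.7% of its spots were well above background in both channels, and the probes ranged from -1.25 to -0.29. The named promoter region of Trim13 itself stood at -0.04 ± 0.03. With only probes well above background the region's value was -0.47, short of the size limit, and with normexp correction 0.04.

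Another pair of called regions, chr12:104456674-104457572 and chr12:104485541-104486992, lay between Rtl1 and Dio3 in the imprinted Dlk1-Dio3 domain. That domain is known for paternally expressed protein-coding genes and for maternally expressed long RNAs that carry many microRNAs, and RefSeq lists 59 microRNA genes between the flanks. The first ran from -1.11 over -0.82 to -0.33 across arrays, with a mean of -0.77 ± 0.26 (SD, n = 7; limma adjusted p = 2.5e-05). The second ran from -0.79 over -0.62 to -0.39, with a mean of -0.60 ± 0.15 (adjusted p = 1.1e-05). Both were low on every array, but unevenly over their probes: the first ranged from -1.82 to -0.18 and the second from -1.04 to -0.03. The first fell to -0.42 with only probes well above background, and the second kept -0.60. A further region of the same stretch, chr12:104490914-104492289, stood at -0.14 ± 0.19 (adjusted p = 0.053). Of the named genes of the domain, the regions of Dlk1, Gtl2 (the array's name for Meg3) and Dio3 stood at 0.05 ± 0.07, 0.13 ± 0.08 and 0.15 ± 0.12. The 3 regions of Rtl1, a retrotransposon-derived gene, stood at -0.26 ± 0.15, -0.11 ± 0.10 and -0.05 ± 0.07. The called regions were picked by the size limit, which none of these named regions passed, so their lower values follow from that choice. The uncalled region at -0.14 lay within the range of the Rtl1 regions.

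The other pair with no transcript listed were the least extreme of the 12. chr1:23510641-23512024 lay between Rims1 and B3gat2, a stretch of 1562 kb that holds Mir30a and Mir30c-2. Its arrays ran from -0.62 over -0.54 to -0.38, with a mean of -0.50 ± 0.09 (SD, n = 7; limma adjusted p = 6.8e-06). chr6:30939699-30941170 lay between Tsga13 and Mkln1, a stretch of 620 kb that holds Mir29a and Mir29b-1. Its arrays ran from -0.69 over -0.50 to -0.30, with a mean of -0.50 ± 0.13 (adjusted p = 1.6e-05). Both sit at the size limit, and each was called in 3 of the 7 fits that left out 1 array. The first lost its call without replicate 3, 5, 6 or 7, at -0.497 to -0.485, and the second without replicate 2, 3, 4 or 6, at -0.4998 to -0.469. The first was also dim, with 66.7% of its spots well above background in both channels, and stood at 0.02 under normexp correction. The second stood at -0.29 there, with an adjusted p of 2e-05.

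The remaining 6 called regions ranged from -0.56 to -0.52. The lowest of them, chr3:53633487-53635055, lies between Stoml3 and Ufm1, 55146 bp from the listed start of Stoml3, and stood at -0.56 ± 0.21. The named gene Stoml3 on one side, which encodes a stomatin-like membrane protein of sensory neurons, stood at -0.42 ± 0.13 in its own region. chrX:29975034-29976565 at clone BC057925 stood at -0.52 ± 0.13, next to Ehox, an X-linked reproductive homeobox gene whose named region stood at -0.62 ± 0.19. Named genes beside other called regions did not all share the side. Rims1 did, at -0.40 ± 0.15 and below 0 on 7 of 7 arrays. B3gat2 stood at 0.08 ± 0.11, Mkln1 at -0.00 ± 0.03 and the 2 regions of Tsga13 at 0.26 ± 0.32 and -0.21 ± 0.29. chr12:48096589-48098016 at clone BC057114, described as mKIAA0311, stood at -0.53 ± 0.22, and its RNA was not well above background on any channel of the expression arrays. The last 3 were chr18:8394351-8396725 at BC020078 with -0.54 ± 0.19, chr15:100392944-100395421 at BC048613 with -0.53 ± 0.16, and chr12:108765138-108766038 at BC003495 and BC085312 with -0.53 ± 0.28. These 3 stood at -0.05, 0.02 and 0.09 under normexp correction, and in the last of them 1 of 4 probes, at -1.71, was under -0.5. Leaving out 1 array ended the call of the BC057925 region (replicate 2 or 6), the BC057114 region (replicate 2), the BC020078 region (replicate 3), the BC048613 region (replicate 1) and the chromosome 12 region at BC003495 (replicate 2 or 5).

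The let-7, miR-125b and miR-99/100 families lie together in a pair of clusters, and the stretches that hold them both had unnamed regions. Between Usp25 and Cxadr on chromosome 16, in the stretch with Mir99a, Mirlet7c-1 and Mir125b-2, 3 regions stood at -0.17 ± 0.11, -0.34 ± 0.09 and -0.30 ± 0.12 (SD, n = 7; limma adjusted p = 0.0054, 3.9e-05 and 0.00022). All 3 were below 0 on 7 of 7 arrays, but with normexp correction they stood at -0.06, 0.11 and 0.04 and none passed. Between Ubash3b and Sorl1 on chromosome 9, in the stretch with Mir100, Mirlet7a-2 and Mir125b-1, chr9:41602560-41603713 stood at -0.27 ± 0.15 and chr9:41647618-41649106 at 0.11 ± 0.08. The first was below 0 on 7 of 7 arrays (adjusted p = 0.0011) and the second on none (adjusted p = 0.018), so these neighbours did not overlap. With normexp correction neither passed, at -0.0086 and 0.043. At a further let-7 cluster, Mirlet7d, Mirlet7f-1 and Mirlet7a-1 between A830005F24Rik and Ptpdc1 on chromosome 13, the region of 10 probes stood at -0.26 ± 0.15 and was below 0 on 7 of 7 arrays (adjusted p = 0.0013). It stood at 0.13 with normexp correction and no longer passed. None of these 6 regions was past the size limit.

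The 3 regions whose stretches hold the miR-124 genes all lay above 0. miR-124 is a microRNA abundant in the brain and known for its role in neurons. For Mir124a-2 this was chr3:17446510-17447682, between Ythdf3 and Bhlhe22, at 0.16 ± 0.09 and above 0 on 7 of 7 arrays (limma adjusted p = 0.0027). For Mir124a-3 it was chr2:180581395-180582558, between Bhlhe23 and Ythdf1, at 0.14 ± 0.07, also above 0 on 7 of 7 (adjusted p = 0.0035). For Mir124a-1 it was chr14:56576462-56577768, between Msra and Hmbox1, at 0.14 ± 0.11 and above 0 on 6 of 7 (adjusted p = 0.012). The 3 values differed from each other by less than their spread between arrays and were far from the size limit. With normexp correction they were 0.13, 0.05 and 0.08, and Mir124a-2 alone passed (adjusted p = 0.015; 0.32 and 0.088 for the others). The highest region with no transcript, chr2:162724104-162725485 at 0.17 ± 0.06, has no RefSeq microRNA gene in its stretch.

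**Figure D4:**
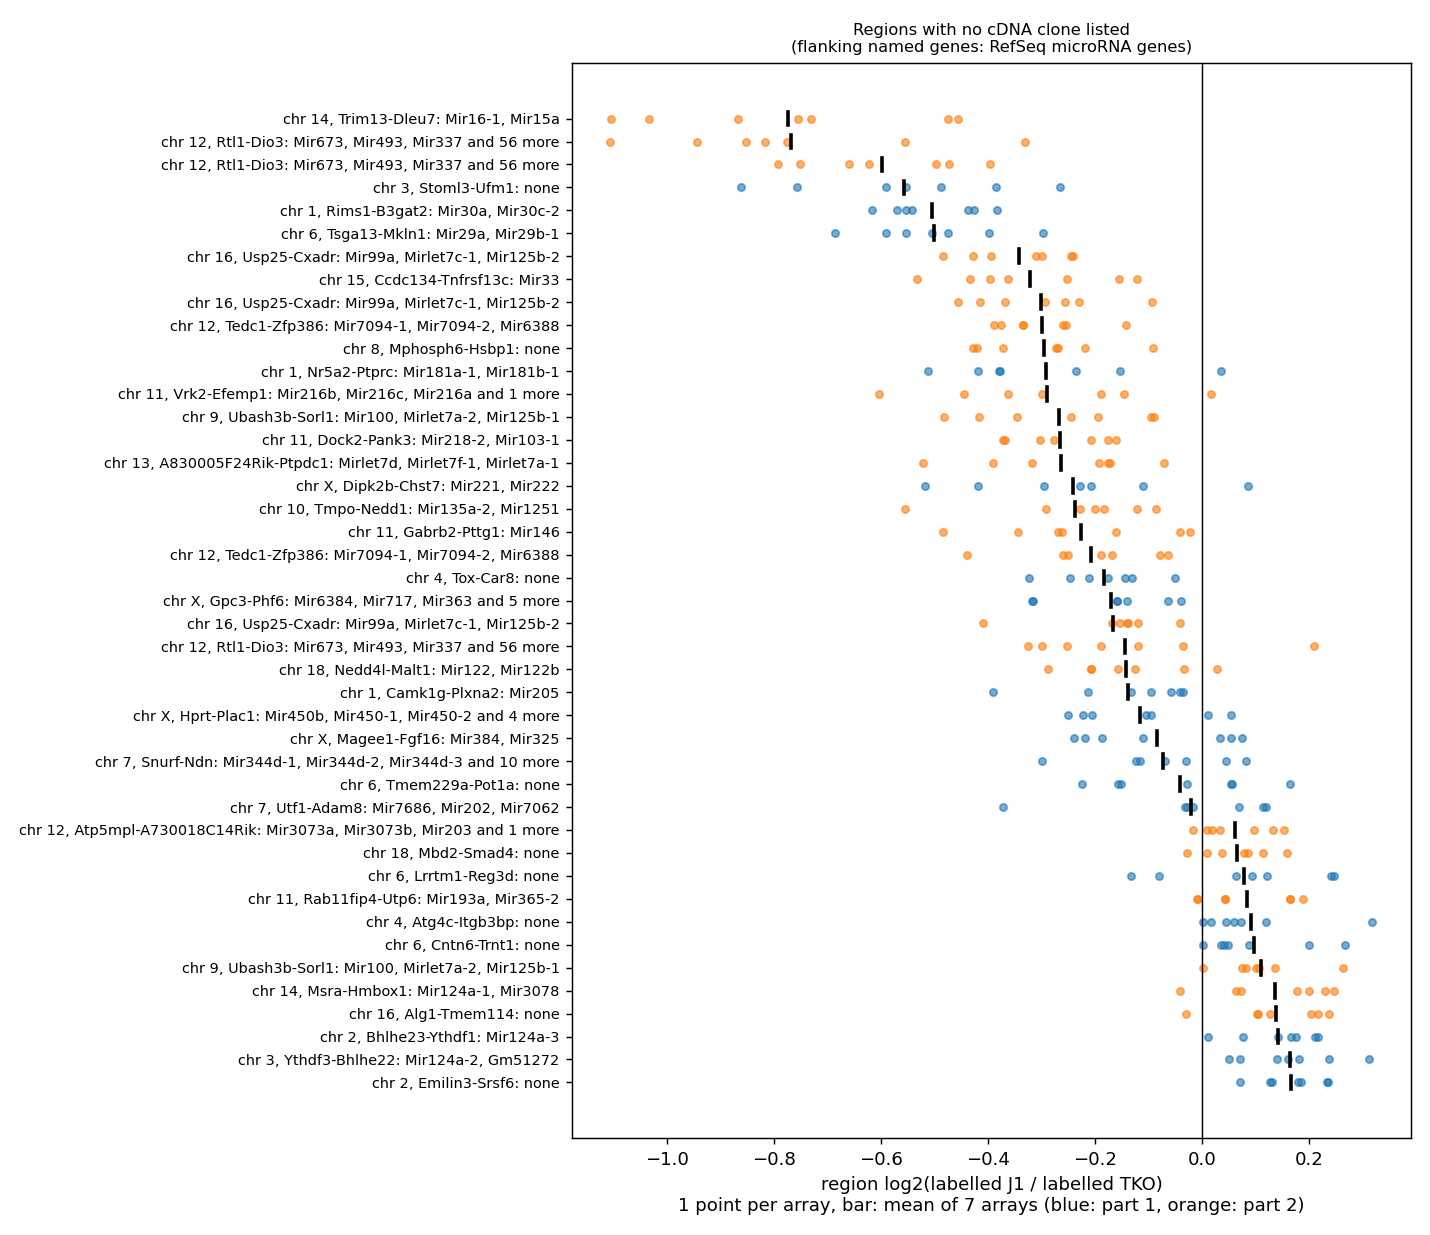
Region log2(labelled J1 / labelled TKO) on each of 7 arrays (points) with the mean (bar) for the unnamed regions with no cDNA clone listed, off the Y chromosome, each named by its flanking genes and the RefSeq microRNA genes of that stretch. Values run from the Mir15a and Mir16-1 stretch at -0.77 to the Mir124a-2 stretch at 0.16 and a stretch with none at 0.17.

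Over all 33 regions with no transcript, 25 had a microRNA gene in their stretch. Of these 25, 17 passed an adjusted p of 0.05 towards the channel labelled TKO and 3 towards the channel labelled J1, with a median of -0.21. Of the 8 without one, 2 and 3 passed, with a median of 0.07. Over all regions fitted, 30.9% (part 1) and 31.5% (part 2) passed on the first side and 25.5% on the second in both parts. With normexp correction 4 and 1 of the 25 passed, and 1 and 2 of the 8, with medians of 0.01 and 0.03. Some of the 25 share a stretch, and 17 of the 25 are on part 2, against 3 of the 8. On part 2, 61.1% of unnamed regions passed towards the channel labelled TKO, against 35.6% on part 1, which includes the Y chromosome regions. The stretches are wide, and a region's value says nothing of a microRNA's own promoter, since the distance between them was not measured. Other stretches with both a microRNA and an adjusted p under 0.05 towards the channel labelled TKO included those of Mir218-2 and Mir103-1 (-0.27 ± 0.09), Mir135a-2 and Mir1251 (-0.24 ± 0.16), Mir221 and Mir222 (-0.24 ± 0.20) and Mir205 (-0.14 ± 0.13). Among regions at a distance from a RefSeq gene, the same held for the stretches of Mir181a-1 and Mir181b-1 (-0.29 ± 0.19) and of Mir146 (-0.23 ± 0.17). None of these 6 was past the size limit. With normexp correction the stretches of Mir218-2 (-0.21) and Mir146 (-0.16) still passed, while the other 4 did not, at -0.0037 for Mir135a-2, 0.10 for Mir221, -0.011 for Mir205 and 0.0027 for Mir181a-1. With loess those of Mir221 and Mir205 did not pass, at -0.09 and -0.08.

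The Y chromosome held 152 unnamed probes, 146 of them at clones that recur along it, with regions numbered here as separate although their probes may share sequence. Clone BC049626 accounts for 105 probes in 22 runs, and a group of clones with BC049586 for 41 probes in 8 runs. The 21 BC049626 regions ranged from 0.06 to 0.36 and the 8 regions of the other group from 0.08 to 0.13. All 29 were above 0 in the mean, beside 39 of the 152 clone regions off the Y. No region among them was past the size limit. Of 152 unnamed Y probes 16 were called towards the channel labelled J1 (10.5%), against 2.50% of the 120 named Y probes, and all 16 were BC049626 probes.

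These 16 probes fall on 3 places of the repeated unit, windows chosen after the values were seen. From 150 to 250 bp on one side of the clone start, 7 of 11 probes were called, with a median of 0.51 and a range from 0.45 to 0.66. At -650 to -550 bp 5 of 13 were called, with a median of 0.40, and at -950 to -850 bp 4 of 11, with a median of 0.37. None of the other 70 BC049626 probes was called, and their median was 0.10. Calls at a given position of the unit came from copies in different places of the chromosome.

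One array of part 1 stood apart here. The median of the unnamed Y probes was -0.13 on replicate 3 and ran from 0.07 to 0.27 on the other 6 arrays, so replicate 3 alone lay on the other side of 0. The difference from named Y probes was 0.13 ± 0.08 over 7 arrays and 0.15 ± 0.05 over the 6 without replicate 3. Named genes of the Y varied, and some behaved like the clones. Sly, a gene known to be present in many copies and expressed in spermatids, had a median of 0.27 ± 0.18 and LOC382133, to which the expression array assigns clone BC089466 of the BC049586 group, 0.19 ± 0.21. Both were below 0 on replicate 3 alone. Others did not follow them: Ssty1, also a multi-copy spermatid gene, stood at 0.06 ± 0.13 with 2 arrays below 0, and 4933439C20Rik, with a median log2 signal of 13.6, at -0.26 ± 0.25. Uty, Usp9y and Ddx3y, genes of the short arm, stood at -0.07 ± 0.07, -0.05 ± 0.15 and -0.09 ± 0.15. Unnamed Y probes were also bright, with a median log2 signal of 13.0 against 10.8 for named Y probes. With loess normalisation 5 of the 16 probe calls on the Y were made, and with normexp correction 2.

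**Figure D5:**
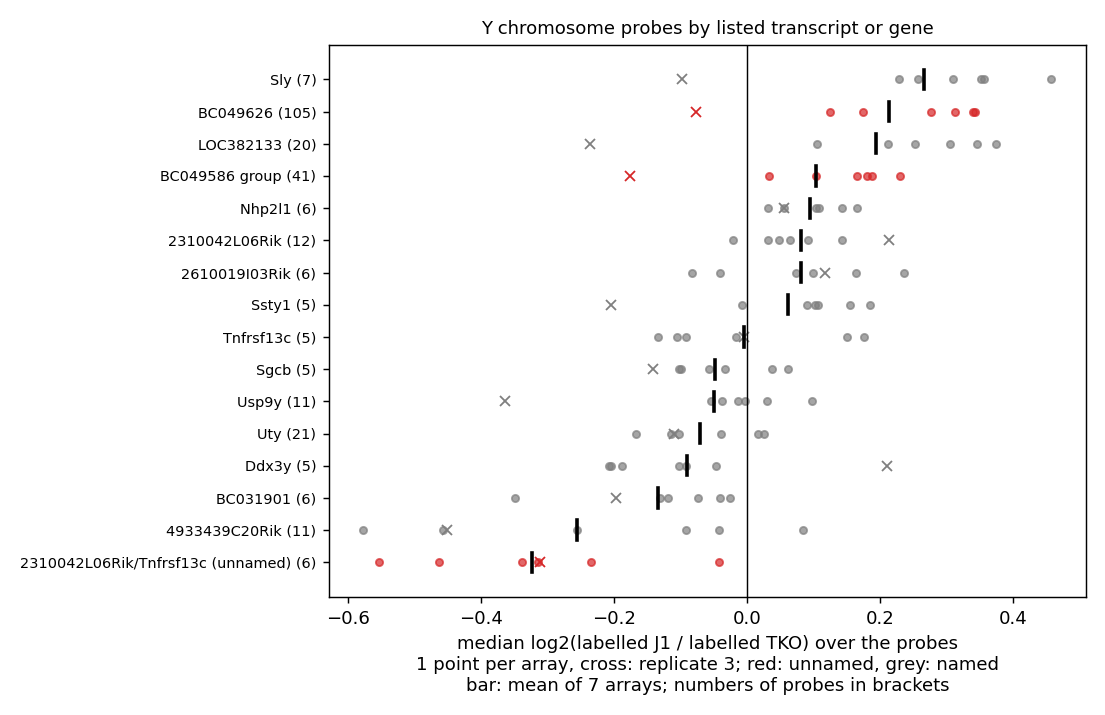
Median log2(labelled J1 / labelled TKO) over the Y chromosome probes of each listed clone group (red, unnamed) or named gene (grey) with at least 5 probes, on each of 7 arrays (cross for replicate 3), with the mean over arrays as a bar. BC049626, the BC049586 group, Sly and LOC382133 lie above 0 on all arrays other than replicate 3.

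The 1 unnamed Y region that was not at those clones, chrY:37172234-37173627, went the other way, at -0.32 ± 0.14 (SD, n = 7; limma adjusted p = 0.00025). It is listed 26610 bp from its nearest listed gene among 2310042L06Rik and Tnfrsf13c, and an unnamed region of chromosome 15 is listed with the same pair, chr15:82538634-82540027, at -0.32 ± 0.15 (adjusted p = 0.00034). Each has 6 probes, placed 0, 267, 545, 803, 1083 and 1333 bp into the region on both chromosomes. The Y copy was measured on part 1 and gave -0.47, -0.17, -0.10, -0.58, -0.44 and -0.17 in that order. The chromosome 15 copy was measured on part 2 and gave -0.63, -0.12, -0.10, -0.52, -0.38 and -0.18. Position for position, the probes at 0, 803 and 1083 bp were the lower ones in both regions, on separate arrays. The probes of both regions may share sequence, which was not checked, so the Y and chromosome 15 copies may not be told apart. With normexp correction the regions stood at -0.30 and -0.29. The named regions beside them were higher on both chromosomes. Tnfrsf13c stood at -0.04 ± 0.07 on the Y and -0.01 ± 0.06 on chromosome 15, and Nhp2l1 at 0.07 ± 0.03 and 0.05 ± 0.06. 2310042L06Rik stood at 0.10 ± 0.11 and 0.11 ± 0.13 in its 2 Y regions and at 0.12 ± 0.09 on chromosome 15.

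Outside the Y, the highest unnamed region was chr8:80950849-80952903 at the start of clone BC064813, which the expression array pairs with Inpp4b, a phosphatase gene of phosphoinositide signalling. Its arrays ran from 0.12 over 0.55 to 0.76, with a mean of 0.45 ± 0.25 (SD, n = 7; limma adjusted p = 0.00053). All arrays were above 0, with those of replicates 1 and 3 both at 0.12. It missed the size limit, although 3 of its 6 probes were called and its probes ranged from 0.17 to 0.75, and it passed with loess at 0.51. RNA of the clone was not well above background on any channel of the expression arrays. Named probes of chromosome 8 also stood above 0, as given above. After it came 2 BC049626 regions of the Y, chrY:10738050-10739236 at 0.36 ± 0.16 and chrY:35745004-35746167 at 0.33 ± 0.13.

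The clones offer a link to RNA, measured on 3 arrays that were deposited as 1 sample and came from the same cultures, per the design text. The array names 193 clones, of which 138 had a probe on the expression array. RNA of 62 of them (44.9%) was well above background in both channels on all 3 arrays, beside 34.9% of all 41534 expression probes. These shares are of unlike units, clones and single probes, since some clones had several probes (10 for BC048518). Off the Y chromosome, the 55 regions at clones with detected RNA had a median of -0.12 and the 70 at clones without it -0.09. Of them, 30 and 32 passed an adjusted p of 0.05 towards the channel labelled TKO, beside 30.9% (part 1) and 31.5% (part 2) of all regions. Values ran from -0.84 to 0.23 at clones with detected RNA and from -0.53 to 0.45 at clones without it, so the sets overlapped. Of the labelled cell type's markers, 5 of the 6 measured ES cell genes were detected (Pou5f1, Sox2, Zfp42, Esrrb and Tdgf1). 5 of 6 fibroblast markers (Col1a1 and Lox among them), 3 of 4 primitive endoderm markers and none of 3 trophoblast markers were as well, and their part in the MeDIP values was not tested.

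Outside the regions, 35 unnamed probes lie in 27 runs of 1 or 2. Towards the channel labelled TKO, 8.79% and 15.0% of all unnamed probes were called (parts 1 and 2), beside 7.04% and 7.19% of all probes. Towards the channel labelled J1 the shares of all probes were 0.844% and 0.859%. Of the 35, 5 were called, all towards the channel labelled TKO and below 0 on 7 of 7 arrays. The lowest was chr3:118777552-118777612, with no transcript listed and Mir137 in its stretch, at -1.06 ± 0.57 (SD, n = 7; limma adjusted p = 0.002). Only 57.1% of its spots were well above background in both channels, and a pair of probes within 8 kb of it gave 0.24 ± 0.18 and -0.08 ± 0.23. The others were chr15:100397442-100397502 near BC048613 at -0.85 ± 0.26, chr17:57323196-57323256 at BC033350 at -0.78 ± 0.26, chr1:59038304-59038364 near BC018354 at -0.75 ± 0.29, and chrX:9634256-9634316 at BC049545 at -0.72 ± 0.23. The chromosome 15 probe lies beside the called region of the same clone and on the same side. At BC018354, which the expression array describes as chromobox homolog 3, 2 further probes gave -0.21 ± 0.17 and -0.01 ± 0.29. Most unnamed probes are far from any named one. The 878 over 100 kb away had a median of -0.03 with 9.80% called towards the channel labelled TKO. The 337 between 10 and 100 kb had -0.11 with 15.1%, beside the 7.04% and 7.19% of all probes. The set over 100 kb away includes the 16 Y probes called towards the channel labelled J1, so the sets differ in more than distance. Another 8 probes lay within 2 kb and 6 between 2 and 10 kb.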

How the data were processed

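Per the submitters' processing notes, the scans were read with Agilent Feature Extraction 8.5. Its intensity values for the MeDIP arrays are, per the file headers, corrected for background and for dye by a linear factor. The authors' deposited tables hold log10 ratios equal to the scanner's within 0.00497. Flags and annotation columns are other values, used as deposited. Here log2(green/red), that is labelled J1 over labelled TKO, was centred on each array's median; control spots and spots marked uneven were left out. Regions were runs of at least 3 unnamed probes with gaps up to 2000 bp, valued at the mean over probes and fitted with the named promoters. In R 4.3.3, limma 3.58.1 tested each mean against 0, fitted for each part, and p-values were adjusted over both parts (Benjamini-Hochberg); a call needs an adjusted p under 0.05 and 0.5 on the log2 scale. On simulated data with changes of 0.7 in this comparison, 86% and 83% of probes (parts 1 and 2) and 100% of regions were recovered. Depth does not apply to arrays: precision is limited by 7 arrays a part, of different passages of 1 line each.

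Members and lists were chosen with earlier results of these data known. Named were the called regions, with the 3 highest because none was called there, the called single probes outside regions, and regions by listed transcript and neighbouring gene; other regions and probes were named after their values were seen. Neighbouring families were matched by the start of the gene symbol. Of those listed, vomeronasal receptor (2 regions, median -0.20), keratin (1 region, -0.43) and zinc finger genes (2 regions, -0.07) were nearest to a region. No region had an Olfr, Rhox, histone, Hox or microRNA symbol nearest to it. Ehox, the reproductive homeobox gene beside the called BC057925 region, does not carry a Rhox symbol and was not counted there. Probe sequences and a genome of the array's build were not used here. Expression arrays served only for detection flags.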

Additional observations from a re-analysis of the deposited data

How the results depend on the processing

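No paired analysis was possible because the test is of each array's own ratio against 0, and both lines share every array. With normexp background correction 22 and 12 unnamed probes and 0 and 0 regions were called (parts 1 and 2), and the part 2 difference from named probes was -0.0371 ± 0.0824 (SD, n = 7). Loess gave 3 regions on part 1, the median over probes 2, and the filter on dim probes 3 regions on part 2. A minimum of 5 probes gave 4 regions on part 2. With no size threshold 325 and 266 probes and 79 and 66 regions passed. Without the Y chromosome, an alternative chosen after seeing the data, the part 1 difference was -0.0617. Leaving out each array gave 74 to 87 and 67 to 80 probes, 2 to 5 and 5 to 8 regions, and differences of -0.03 to -0.02 and -0.12 to -0.11; the part 1 regions were 2 without replicate 6 and 3 without replicate 2 or 3. Centring on named probes, the deposited tables, and a slide block on part 2 (7 regions) stayed within 1.5 times of each count; on part 1, where 1 pair of arrays is known to share a slide, limma returned no slide correlation. With probes not well above background left out, 68 and 59 unnamed probes were called.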
